A study of Mus musculus with 4 samples.

Results

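The genes described here are the expressed Zfp genes of mouse CD4+ T cells, that is, the genes whose symbol is Zfp followed by a number, a symbol given to zinc finger protein genes. They were chosen by symbol and by level: the gene had to be listed in all 4 libraries with a mean expected count of at least 100, and Zfp36, an RNA-binding protein of another class, was left out. Of 17478 genes listed in at least 1 library, 327 carried such a symbol, 312 of these were listed in all 4 libraries, and 228 reached the minimum; 84 fell below it and 15 were missing from at least 1 library. The rule used the symbol and the level only and no genotype label, but it was set with earlier results of these data known. Just outside the minimum were Zfp563 (mean expected count 95.75), Zfp235 (96.48) and Zfp109 (96.59), and just inside it were Zfp934 (106.32), Zfp599 (108.29) and Zfp560 (109.25). All 228 members also passed the filter on low counts of the test.

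The cells were naive CD4+ T cells (CD44lo CD62Lhi) sorted from spleen and lymph nodes of C57BL/6 mice aged 6 to 8 weeks, activated with anti-CD3 and anti-CD28 and kept for 3 days under Th9 conditions, which favour helper T cells that secrete interleukin 9. One group of 2 libraries came from wild-type mice and the other group of 2 from BFAR-/- mice, which the labels describe as deficient only in T cells. Neither the promoter that drives the deletion nor the deleted exons nor the number of mice per library is given in the sources used here. Libraries are called wild type 1 and 2 and knockout 1 and 2 below.

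Most Zfp proteins carry rows of C2H2 zinc fingers, small folds held by a zinc ion, each of which reads a few bases of DNA. Many of them also carry a KRAB domain at the N-terminus, which recruits the corepressor TRIM28 and through it the histone methyltransferase SETDB1, so that the bound DNA, often a transposable element, is silenced. Genes of this kind arose by tandem duplication and lie in clusters on several chromosomes. Other Zfp proteins have few fingers and work in RNA processing, translation or ubiquitination, so the shared symbol does not mean a shared function.

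The libraries held between 19058009 and 19782923 expected counts. Bfar, which encodes a ubiquitin ligase of the endoplasmic reticulum, had 36.4 and 32.9 CPM (read counts scaled to library size) in wild type 1 and 2 and 8.45 and 7.79 in knockout 1 and 2, so each library matched its label. The T cell genes Cd4, Cd3e, Cd3d, Cd28 and Lck were abundant in every library, at 109 CPM or more, and Cd4 itself rose in the knockout (592, 581, 702 and 671 CPM, log2 fold change 0.23 ± 0.04, edgeR adjusted p = 0.0003). Of the markers of other cells, Ms4a1, Itgam and Hba-a1 had between 0 and 5.04 counts, too few to test. The B cell gene Cd79a had 10 and 8 counts in the wild type libraries against 15 and 20 in those of the knockout (log2 fold change 1.0 ± 0.42, edgeR adjusted p = 0.0919), and the dendritic cell gene Itgax had 22 and 28 against 15.94 and 8.89 (-0.95 ± 0.37, adjusted p = 0.0726). Neither passed the test, although in both the genotypes did not overlap. Cd8a had 25.81 to 39 counts and Cd8b1 164.27 to 194.43, and neither was called. The part of these markers in the results below was not tested. In bulk RNA, fewer cells of a type and less RNA per cell cannot be told apart. Whether replicates are separate mice is not stated, so the p-values speak for the spread between these libraries, which may be technical.

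The promoters of the 5 genes below are shown because these genes are Zfp961, Zfp868 and Zfp160, which are among those with the largest differences, and Zfp617 and Zfp866, called neighbours of Zfp961 and Zfp868. The stretches are RefSeq sequence of GRCm38.p6, from the 250 bases before an annotated transcript start, 5′ to 3′ on the strand of the gene, without bases covered by a GENCODE M21 exon or by the RefSeq span of the gene itself. Capitals mark matches, on either strand, to GGGCGG (the SP box), TGACG (the core of the cyclic AMP response element) and CCGGAAG (an ETS site).
Zfp961, chr8:71950816-71951037, plus strand: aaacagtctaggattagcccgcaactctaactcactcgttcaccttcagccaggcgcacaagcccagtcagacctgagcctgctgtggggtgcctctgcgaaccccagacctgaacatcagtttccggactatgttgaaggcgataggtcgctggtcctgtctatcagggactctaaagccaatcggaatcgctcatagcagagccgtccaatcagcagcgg
Zfp617, chr8:71922575-71922824, plus strand: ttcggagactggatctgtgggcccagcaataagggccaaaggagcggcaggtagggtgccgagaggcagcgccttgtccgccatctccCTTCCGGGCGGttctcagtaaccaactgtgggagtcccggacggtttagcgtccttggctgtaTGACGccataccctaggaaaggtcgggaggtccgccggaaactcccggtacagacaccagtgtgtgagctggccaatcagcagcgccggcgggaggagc
Zfp868, chr8:69625558-69625798, minus strand: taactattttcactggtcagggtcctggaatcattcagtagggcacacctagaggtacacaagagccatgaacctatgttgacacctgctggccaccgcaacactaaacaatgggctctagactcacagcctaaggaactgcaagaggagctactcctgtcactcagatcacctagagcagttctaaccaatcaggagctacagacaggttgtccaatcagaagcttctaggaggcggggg
Zfp866, chr8:69774912-69775161, minus strand: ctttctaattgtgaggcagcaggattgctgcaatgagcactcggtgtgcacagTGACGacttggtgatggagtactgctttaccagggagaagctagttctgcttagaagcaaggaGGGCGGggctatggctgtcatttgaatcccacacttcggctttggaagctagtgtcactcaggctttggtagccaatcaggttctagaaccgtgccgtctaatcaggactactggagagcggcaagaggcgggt
Zfp160, chr17:21008691-21008902, plus strand: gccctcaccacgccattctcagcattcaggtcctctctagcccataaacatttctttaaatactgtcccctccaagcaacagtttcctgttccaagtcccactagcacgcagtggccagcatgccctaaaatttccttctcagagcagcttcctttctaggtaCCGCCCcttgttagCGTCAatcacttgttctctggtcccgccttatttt
The printed stretch of Zfp961 holds 11 CG dinucleotides and no match, while that of its neighbour Zfp617 holds 18 CG and matches to the ETS, SP and CRE letters. The stretch of Zfp868 holds 2 CG and no match. Those of Zfp866 and Zfp160 hold 8 and 5 CG, and each has 1 SP and 1 CRE match.

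The question of the comparison was which Zfp genes differ between cells with and without Bfar. With edgeR's quasi-likelihood test and Benjamini-Hochberg adjustment over all tested genes at 0.05, 34 members rose and 18 fell in the knockout, which is 14.9% and 7.89% of the 228. Among all 12677 tested genes, 13.6% rose and 13.2% fell, 26.8% in all, against 22.8% of the members. Among the 9857 tested genes that also reached a mean count of 100, 15.3% rose and 15.8% fell, 31.2% in all. The share of members that rose was thus near the background, and the share that fell was below it. No test of this difference was made. The members were less deeply counted, with a median mean count of 359.2 beside 850 for the genes that reached the minimum. At a mean count of 100 to 300, 300 to 1000 and 1000 or more, 6.25%, 5.26% and 18.9% of members fell. Among all tested genes of these depths 7.64%, 12.6% and 22.1% fell, and the part of depth was not tested. The median log2 fold change of the members, knockout over wild type, was 0.02 with quartiles of -0.08 and 0.15, beside -0.00, -0.13 and 0.15 over all tested genes, and 131 members lay above 0. The CPM of the groups did not overlap in 132 members (57.9%), against 67.1% of the genes that reached the count minimum. The largest rises and falls named below were picked among called members whose groups do not overlap, so that trait adds no support to them. The differences were small: 7 members (3.07%) were called with a change of at least 1.5-fold, where 2.76% of the genes that reached the count minimum were.

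**Figure D1:**
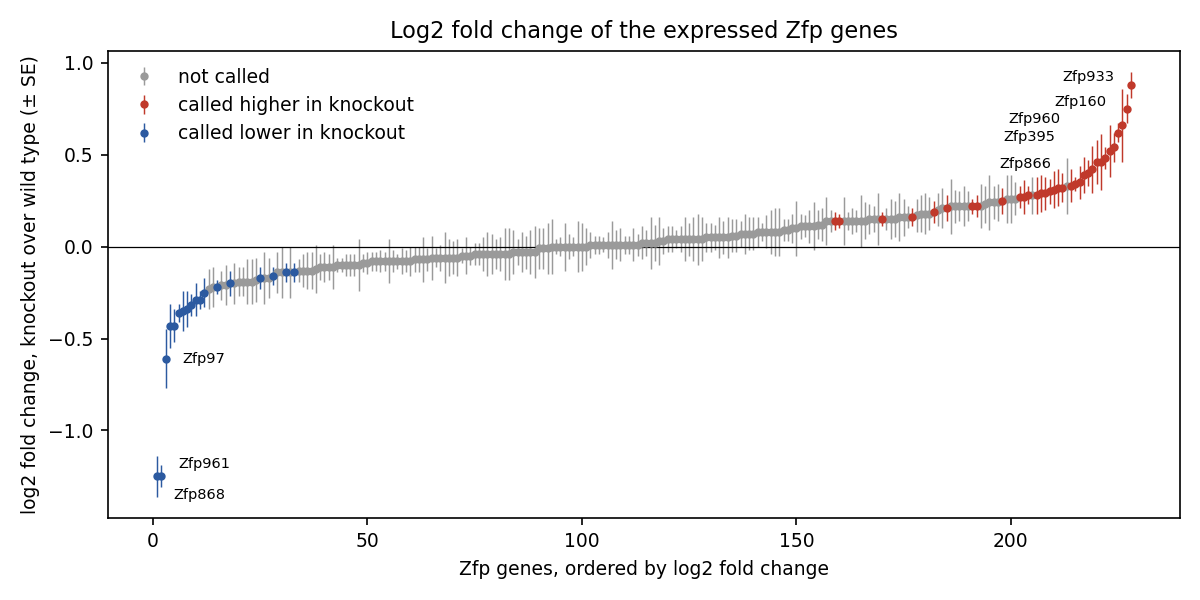
Log2 fold change, knockout over wild type, of the 228 expressed Zfp genes in order (points, with the SE as bars); red points are the 34 called higher, blue the 18 called lower and grey the rest. Most genes lie close to 0, Zfp961 and Zfp868 stand alone at -1.25, and Zfp933 is highest at 0.88.

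The calls were of unequal firmness. DESeq2 called 10 members higher and 8 lower, and with any 1 library left out edgeR called 12 to 20 higher and 7 to 10 lower, the fewest higher without knockout 1 and the fewest lower without knockout 2. Of the 52 called members, 14 were called without each library in turn. Across 13 alternatives (other tools, scalings and filters, log2 FPKM, 1 library left out, and a replicate block), 5 members were called in every one: Zfp961 fell, and Zfp933, Zfp160, Zfp395 and Zfp52 rose. The strictest of these, log2(FPKM + 0.1) with no filter, called only these 5 members and 1.48% of all genes, so the calls of the other 47 members were lost there. For each gene the number of these 13 alternatives that called it is given below.

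As a group the Zfp genes were expressed at low levels. FPKM values, which are scaled by transcript length and so compare genes, averaged between 1.17 for Zfp560 and 97.14 for Zfp207 over the 4 libraries, with a median of 5.83 and quartiles of 3.01 and 10.83; the median of all tested genes was 9.98. All 228 members together took 0.771% and 0.76% of the counts in wild type 1 and 2 and 0.772% and 0.765% in knockout 1 and 2. The ranges overlapped, so the summed output of the family did not separate the genotypes. The next in FPKM after Zfp207 were Zfp598 (63.09), Zfp362 (50.41), Zfp106 (43.44), Zfp706 (33.38), Zfp703 (31.11), Zfp384 (28.9) and Zfp609 (27.64). Called genes were more frequent among the more deeply counted members: 18 of 96 with a mean count of 100 to 300, 19 of 95 with 300 to 1000, and 15 of 37 with 1000 or more, which is 18.8%, 20% and 40.5%. Among all tested genes of the same depth the shares were 20.4%, 26.8% and 39.6%, so the gradient was shared by genes in general.

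The 2 largest falls were KRAB-type genes on chromosome 8. Zfp961 (gene 234413, chromosome 8, 71951048 to 71970333, GRCm38), whose protein holds 11 fingers and a KRAB A box by pattern, had 56.8 and 57.8 CPM in wild type 1 and 2 and 25.4 and 22.9 in knockout 1 and 2. Both knockout libraries were below both wild-type ones, and its level more than halved. Its log2 fold change was -1.25 ± 0.06 (± SE, 2 libraries a group, edgeR adjusted p = 3.05e-09), and it was called in all 13 alternatives. Zfp868 (chromosome 8, 69610654 to 69625557), with 9 fingers and a KRAB A box by the wider pattern described below, had 20.3, 21.8, 9.95 and 7.69 CPM in the same order. Its groups did not overlap either, with knockout 2 the lowest. Its log2 fold change was -1.25 ± 0.11 (± SE; edgeR adjusted p = 1.36e-06), and between -1.45 and -1.08 with 1 library left out; 12 of 13 alternatives called it.

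The other KRAB-type genes that fell did so by less and less firmly. Zfp944 (14.3, 12.7, 9.74 and 11.4 CPM) fell by 0.35 ± 0.11 on the log2 scale, with an adjusted p of 0.0298 in edgeR, Zfp788 (17.5, 15.8, 13.9 and 12.4 CPM) fell by 0.34 ± 0.10 (adjusted p = 0.018), and Zfp324 (15.3, 15.4, 12.1 and 13.1 CPM) fell by 0.29 ± 0.09 (adjusted p = 0.0339). In each the groups did not overlap, as the rule that named the largest falls asked. The gap was narrowest in Zfp944, between knockout 2 and wild type 2. They were called in 5, 5 and 4 of 13 alternatives. Zfp944 was lost without wild type 1 (edgeR adjusted p = 0.212), knockout 1 (0.245) or knockout 2 (0.0661), and Zfp788 without wild type 1 (0.145), knockout 1 (0.0587) or knockout 2 (0.189). Zfp324 was lost without any 1 of the libraries (adjusted p from 0.088 to 0.187). Over all 13 alternatives the adjusted p ranged from 0.018 to 0.245 for Zfp944, from 0.00741 to 0.189 for Zfp788 and from 0.0255 to 0.255 for Zfp324. Zfp617 and Zfp97, the remaining KRAB-type genes that fell, are described with their neighbours below.

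Among KRAB-type genes that rose, Zfp933 and Zfp160 led. Zfp933 (chromosome 4, 147822986 to 147849126; 12 fingers) had 18.8 and 19.4 CPM in wild type 1 and 2 and 35.8 and 34.3 in knockout 1 and 2. The knockout libraries were far above the wild-type ones and both pairs were tight. Its log2 fold change was 0.88 ± 0.07 (± SE, 2 libraries a group, edgeR adjusted p = 5.49e-07). Zfp160 (chromosome 17, 21008941 to 21028857; 18 fingers) had 17.7, 17.3, 29.4 and 29.6 CPM and rose by a log2 of 0.75 ± 0.08, with an edgeR adjusted p of 3.74e-06. Zfp52 (chromosome 17, 21533725 to 21563362; 14 fingers) had 29.9, 29.7, 41.4 and 41.4 CPM and rose by 0.48 ± 0.06 (adjusted p = 4.75e-05). In all 3 genes the genotypes were clearly apart, and all 13 alternatives called them. Zfp866 (chromosome 8, 69761324 to 69774911; 12 fingers) had 18.2, 20.5, 28.5 and 28.0 CPM (log2 fold change 0.54 ± 0.08, edgeR adjusted p = 0.00016). Zfp871 (chromosome 17, 32765496 to 32788287; 15 fingers) was the most abundant KRAB-type gene that rose by counts, with 140, 133, 172 and 172 CPM (0.34 ± 0.04, adjusted p = 3.29e-05). For both, 12 of 13 alternatives made the call.

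**Figure D2:**
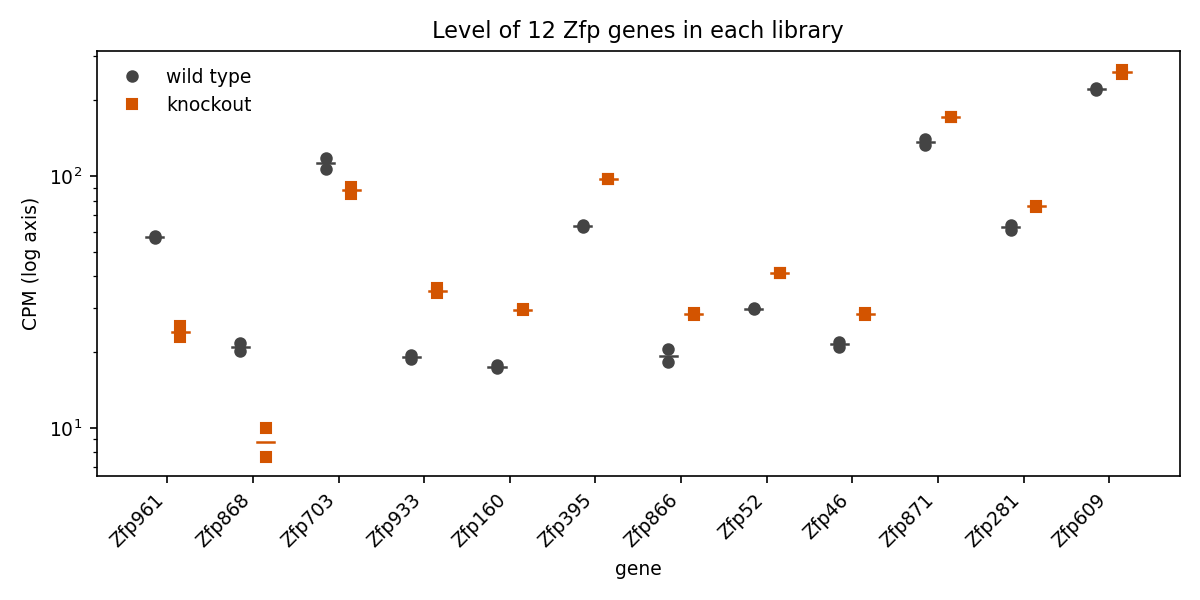
CPM on a log axis of 12 Zfp genes in each library: circles are the 2 wild-type libraries, squares the 2 knockout libraries and short lines the group means. These are the called genes that at least 12 of 13 alternatives called. In none of them do the genotypes overlap, which also held for 67.1% of tested genes that reached the count minimum.

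The other KRAB-type genes that rose had log2 fold changes between 0.15 and 0.66. Zfp445, which is known to maintain imprints in mouse and human, had 109, 108, 120 and 122 CPM and rose by 0.15 ± 0.04 (edgeR adjusted p = 0.0127). The difference was small but the groups did not overlap, and 5 of 13 alternatives called it; it was lost without any 1 of the libraries (adjusted p from 0.0566 to 0.102; 0.00532 to 0.102 over all alternatives). Zfp120 (14.6, 15, 19.2 and 18.6 CPM) rose by 0.35 ± 0.09 (adjusted p = 0.00712) and was called in 9 of 13. Without knockout 1 its adjusted p was 0.0742 and without knockout 2 it was 0.0597, in a range of 0.0042 to 0.0898. Zfp951 (6.16, 8.05, 9.23 and 11.2 CPM) rose by 0.52 ± 0.14 (adjusted p = 0.0137) and Zfp157 (8.13, 9.82, 11 and 13.1 CPM) by 0.42 ± 0.13 (adjusted p = 0.0211). In both, wild type 2 stood close to knockout 1, and 6 of 13 alternatives called them. Zfp951 was lost without wild type 1 (0.165) or knockout 2 (0.213), and Zfp157 likewise (0.191 and 0.241). Zfp954, Zfp808, Zfp825, Zfp182 and Zfp26 had log2 fold changes between 0.19 and 0.33, and between 4 and 8 of 13 alternatives called each. None of these 5 was called without each library in turn. Zfp677, Zfp790 and Zfp869, which also rose, are described with their clusters below, and Zfp960 with its near-identical copy.

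Zfp genes without a KRAB match include several with well-known functions, and the clearest rise among them was Zfp395. Its human counterpart is known as a gene induced by hypoxia and as a regulator of interferon-stimulated genes. Zfp395 (chromosome 14, 65358676 to 65398930) had 62.6 and 63.9 CPM in wild type 1 and 2 and 97.1 and 97.8 in knockout 1 and 2. The replicates nearly coincided and the genotypes were well apart. The log2 fold change was 0.62 ± 0.05 (± SE, 2 libraries a group, edgeR adjusted p = 1.34e-07), called in all 13 alternatives. Zfp281, a repressor known from embryonic stem cells, had 63.9, 61.2, 76.2 and 75.5 CPM (0.28 ± 0.05, adjusted p = 0.000562). Zfp609, which is known to bind the Integrator complex and the cohesin loader, had 225, 221, 254 and 264 CPM (0.22 ± 0.04, adjusted p = 0.000723). Zfp46 had 21.9, 21.0, 28.7 and 28.1 CPM (0.40 ± 0.07, adjusted p = 0.000838). Each of these 3 rose in both knockout libraries and was called in 12 of 13 alternatives.

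Zfp608, the paralogue of Zfp609 and known to repress the Rag genes in thymocytes, had 19.1, 19, 25 and 21.6 CPM. It rose by 0.29 ± 0.09 (edgeR adjusted p = 0.0224), with knockout 2 nearer the wild type than knockout 1. It was called in 5 of 13 alternatives and lost without wild type 1 (0.0738), wild type 2 (0.0773) or knockout 1 (0.238), in a range of 0.0107 to 0.238. Zfp516, which is known as an activator in brown fat, had 7.92, 9.82, 11.4 and 13.1 CPM (0.46 ± 0.12, adjusted p = 0.0128). It was called in 5 of 13 and lost without wild type 1 (0.145), knockout 1 (0.0507) or knockout 2 (0.181), in a range of 0.00222 to 0.238. Zfp260 rose by 0.27 ± 0.06 (32.7, 32.8, 39.6 and 39.4 CPM; adjusted p = 0.00373) and was called in 11 of 13, the exceptions being DESeq2 (0.0525) and unfiltered FPKM (0.0606). The other rises outside the KRAB-type genes were Zfp799, Zfp950, Zfp956, Zfp488, Zfp655, Zfp277, Zfp827, Zfp292 and Zfp219, with log2 fold changes between 0.14 and 0.39, and none of them was called without each library in turn.

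The falls among genes without a KRAB match included several of the most abundant members. Zfp703, a corepressor of the NET family, had 118 and 107 CPM in wild type 1 and 2 and 90.7 and 85.2 in knockout 1 and 2. All wild-type values lay above all knockout values. The log2 fold change of Zfp703 was -0.36 ± 0.05 (± SE; edgeR adjusted p = 0.000148), called in 12 of 13 alternatives. Zfp362 had 169, 152, 133 and 130 CPM (-0.29 ± 0.05, adjusted p = 0.00053) and Zfp598, the ubiquitin ligase that marks collided ribosomes, had 234, 219, 201 and 190 CPM (-0.22 ± 0.04, adjusted p = 0.00202). Both were called in 11 of 13 alternatives, with adjusted p up to 0.103 and 0.113. Both were lost without knockout 2, with adjusted p of 0.0557 for Zfp362 and 0.0852 for Zfp598. Zfp207, the most abundant member, encodes a protein that loads BUB3 at kinetochores. It had 258, 241, 232 and 214 CPM, so that knockout 1 lay close below wild type 2. Its log2 fold change was -0.16 ± 0.05 (adjusted p = 0.017), and 7 of 13 alternatives called it; it was lost without wild type 1 (0.196) or knockout 2 (0.254), in a range of 0.000767 to 0.254.

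Zfp318, which B cells need to make IgD transcripts, had 77.1, 78.7, 66.6 and 58.6 CPM, lowest in knockout 2 (-0.32 ± 0.06, edgeR adjusted p = 0.000829; called in 10 of 13). Zfp771 had 22.0, 20.2, 14.9 and 16.5 CPM (-0.43 ± 0.09, adjusted p = 0.00256; called in 11 of 13). It was lost without knockout 1 (0.0709), in a range of 0.000854 to 0.0803. Zfp296 had 9.34, 10.5, 7.0 and 7.79 CPM (-0.43 ± 0.12, adjusted p = 0.0175). It was called in 7 of 13 and lost without wild type 2 (0.144), knockout 1 (0.141) or knockout 2 (0.0696), in a range of 0.00757 to 0.168. Zfp706 and Zfp384, both abundant, had -0.14 ± 0.05 each (157, 160, 150 and 137 CPM, adjusted p = 0.0346; 98.2, 94.8, 89.5 and 85.4 CPM, adjusted p = 0.0306). Their values in the 2 genotypes came close to each other. Zfp706 was called in 5 of 13 and lost without wild type 1 (0.102), wild type 2 (0.148) or knockout 2 (0.31), in a range of 0.0104 to 0.31. Zfp384 was called in 4 of 13 and lost without any 1 of the libraries (0.0647 to 0.213; 0.0126 to 0.213 over all alternatives). Zfp251 and Zfp64 were the other falls, with -0.20 ± 0.07 and -0.17 ± 0.06, called in 4 and 3 of 13. Zfp251 was lost without wild type 1 (0.191), wild type 2 (0.103) or knockout 1 (0.337), in a range of 0.0261 to 0.337, and Zfp64 without any 1 of the libraries (0.0746 to 0.195; 0.0215 to 0.248 over all alternatives).

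Most other members known for work in T cells, chromatin or RNA did not pass the test. Zfp335, which T cells need to mature, had 86.6, 82.9, 75.3 and 85.2 CPM, and its groups overlapped (-0.08 ± 0.06, edgeR adjusted p = 0.325). Zfp91, a ubiquitin ligase of the non-canonical NF-kappaB pathway, had 142, 137, 130 and 130 CPM (-0.10 ± 0.04, adjusted p = 0.0938). The log2 fold changes of Zfp148, Zfp143, Zfp131, Zfp217, Zfp326, Zfp410, Zfp451, Zfp592, Zfp622, Zfp638, Zfp692, Zfp740, Zfp746, Zfp809, Zfp830 and Zfp932 lay between -0.10 and 0.08, and none of these passed the test. Among them, Zfp410 is known to activate Chd4, Zfp451 is a SUMO ligase, Zfp592 is a partner of Zfp687, Zfp638 silences unintegrated retroviral DNA, and Zfp809 silences retroviruses in stem cells. Zfp687 itself had 42.9, 39.1, 46.5 and 45.1 CPM (0.16 ± 0.06, adjusted p = 0.0656). It passed without wild type 1 and with upper-quartile factors (adjusted p = 0.048 in both) and with the replicate block (0.0346). Zfp106, an abundant RNA-binding protein, had 403, 413, 388 and 399 CPM (-0.05 ± 0.04, adjusted p = 0.32).

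Chromosomal clusters were read from the RefSeq gene table of GRCm38.p6, in which all 228 members were found. A cluster was a run of at least 3 Zfp genes whose starts lay no more than 500 kb apart. The 30 clusters with members held 131 of the 228; 17 of these rose and 7 fell, against 17 and 11 of the 97 outside, with median log2 fold changes of 0.04 and 0.01. The shares called were 18.3% and 28.9%, both below the 31.2% of genes that reached the count minimum. Of the chromosomes with at least 10 members, chromosome 7 had 7 of 56 called (12.5%), chromosome 17 had 10 of 28 (35.7%), chromosome 13 had 2 of 18, chromosome 8 had 7 of 17 (41.2%), chromosome 6 had 2 of 16, chromosome 5 had 3 of 15, chromosome 9 had 3 of 14 and chromosome 2 had 2 of 11. Among those with fewer members, the largest shares were 3 of 3 on chromosome 14 and 4 of 7 on chromosome 4. A chromosome 13 cluster with 9 members (66670274 to 67827000) had none called by edgeR or DESeq2, with 1 and 0 at an unadjusted p under 0.05. Only 5 clusters held 2 or more called members.

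On chromosome 8, 2 small clusters contained the extreme falls. In the first (69209018 to 69774911), Zfp868 fell as given above, whereas its neighbours Zfp869 (27.6, 26.3, 34.1 and 32.4 CPM, log2 fold change 0.30 ± 0.07, edgeR adjusted p = 0.00419) and Zfp866 rose. The fourth member, Zfp930, had 13.4, 12.2, 11.5 and 12 CPM (-0.13 ± 0.10, adjusted p = 0.364). Zfp869 was called in 11 of 13 alternatives and lost without knockout 1 (0.0693), in a range of 0.00146 to 0.0804. Zfp868 shares 9.37% of its 31-base words with other listed genes, Zfp869 most of all. The sum of Zfp868 and Zfp869 was 47.8, 48.1, 44 and 40.1 CPM, a log2 ratio of -0.19, so the fall of Zfp868 was larger than the rise of Zfp869. The share of the sum given to Zfp868 was 42.4% and 45.3% in wild type 1 and 2 and 22.6% and 19.2% in knockout 1 and 2. The part of shared reads in this shift was not tested. In the second cluster (71882068 to 71970333), Zfp961 fell by 1.25 on the log2 scale and Zfp617 by 0.25 ± 0.08 (23.5, 22.6, 19.8 and 18.9 CPM, adjusted p = 0.0295). Zfp617 was called in 4 of 13 alternatives and lost without any 1 of the libraries (0.0547 to 0.183; 0.0217 to 0.221 over all alternatives). The other two, Zfp709 (6.51, 6.28, 7.1 and 5.85 CPM) and Zfp882 (7.87, 8.45, 7.05 and 9.16 CPM), overlapped between genotypes. The called members of the first cluster thus moved in both directions, and both called members of the second fell.

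In the chromosome 17 cluster from 21008941 to 23599755, 3 of 14 members were called higher (Zfp160, Zfp52 and Zfp677) and 1 lower (Zfp944), a share below the 31.2% of genes that reached the count minimum. Its median log2 fold change was 0.20, and 11 of the 14 lay above 0, most of them without a call, where 47.7% of genes that reached the minimum lay above 0. Zfp677 was scarce (4.84, 5.57, 7.88 and 6.48 CPM; 0.46 ± 0.15, edgeR adjusted p = 0.0307), was called in 5 of 13 alternatives and was lost without wild type 1 (0.196), knockout 1 (0.233) or knockout 2 (0.055), in a range of 0.0179 to 0.233. Zfp948 came next (15, 13.9, 16.5 and 18.0 CPM; 0.26 ± 0.09, adjusted p = 0.0512), and Zfp51, Zfp53, Zfp54, Zfp40, Zfp760, Zfp942, Zfp943, Zfp758 and Zfp213 had no call. A second cluster on that chromosome (32765496 to 33631716) had 7 of 8 members above 0, of which Zfp871 and Zfp799 were called. Zfp799 (10.5, 10.3, 13.8 and 13.5 CPM; 0.39 ± 0.10, adjusted p = 0.00951) was called in 6 of 13 and lost without wild type 2 (0.0503), knockout 1 (0.0684) or knockout 2 (0.0643), in a range of 0.0057 to 0.12. In the chromosome 7 cluster (29768552 to 30169775), Zfp260 and Zfp790 were called higher among 10 members whose median was 0.0. Zfp790 (13.3, 14.6, 17.5 and 16.1 CPM; 0.27 ± 0.09, adjusted p = 0.0465) was called in 4 of 13 and lost without any 1 of the libraries (0.0529 to 0.25; 0.0362 to 0.274 over all alternatives).

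**Figure D3:**
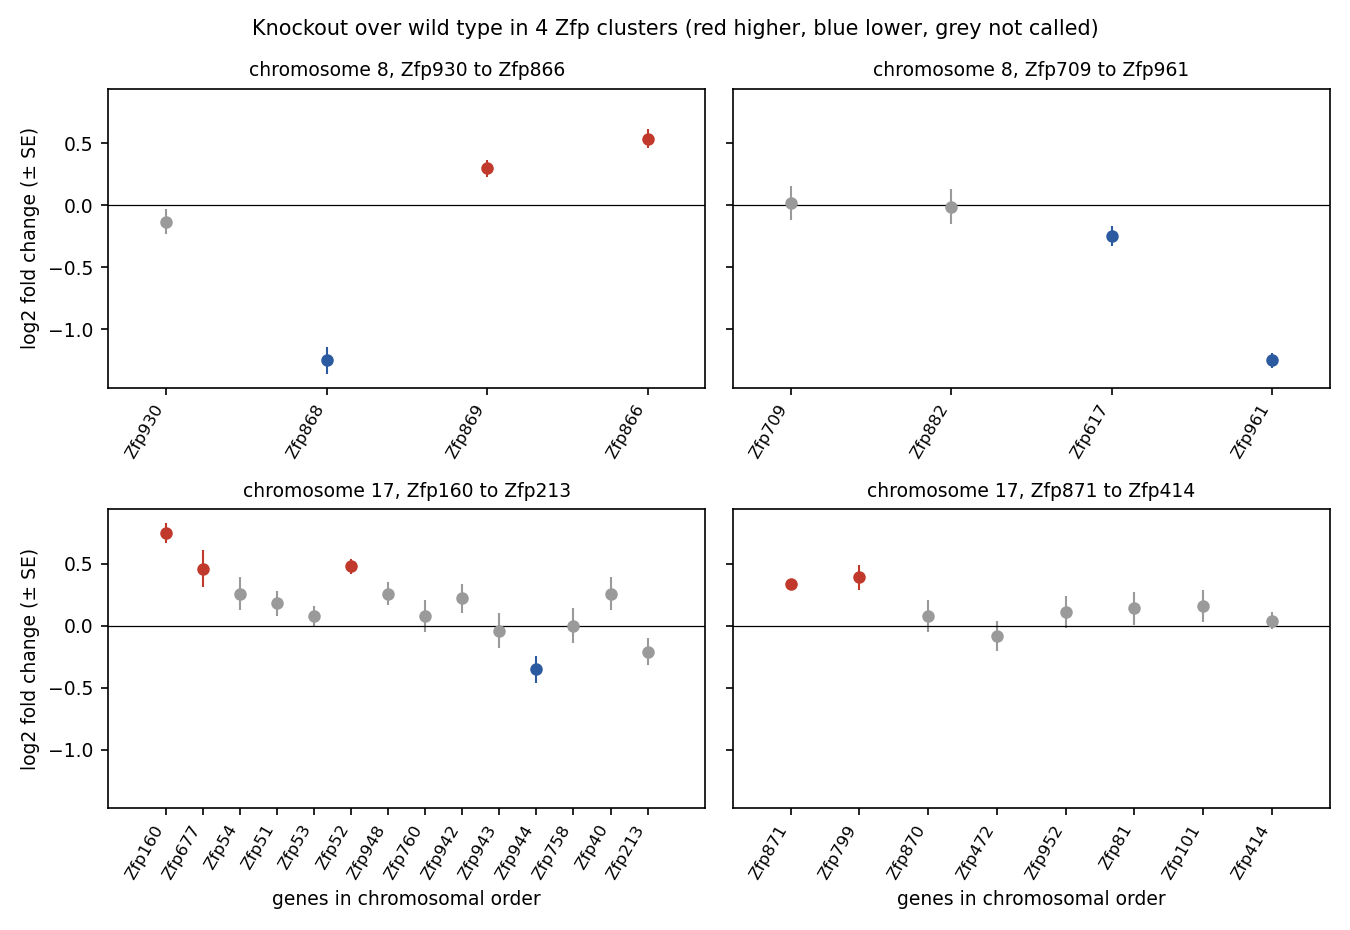
Log2 fold change, knockout over wild type (points, with the SE as bars), of the members of 4 chromosomal clusters in their order along the chromosome; red is called higher, blue called lower and grey not called. On chromosome 8, Zfp868 and Zfp961 lie at -1.25, Zfp617 is also called lower at -0.25, and the other members lie near or above 0. On chromosome 17 most members lie between 0 and 0.75.

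Other tested genes near the leading members were also counted. Of all tested genes 26.8% were called, and each window holds few genes. Within 250 kb of Zfp933, 6 of 10 other tested genes were called, 4 higher and 2 lower. Among them the Zfp gene Zfp534, below the count minimum, had 1.38 and 3.02 expected counts in wild type 1 and 2 and 43.99 and 19.91 in knockout 1 and 2 (edgeR adjusted p = 0.000239). The pseudogene Rps19-ps3, which starts 1.2 kb before Zfp933, had 20.56, 25.58, 65.26 and 51.03 expected counts, and Miip fell by 0.30 ± 0.06 on the log2 scale (adjusted p = 0.00225). Within 250 kb of Zfp868, 3 of 8 others rose (37.5%). They were Zfp869 and Zfp866, the cluster members given above, and Pbx4, which had 4, 5, 30 and 41 counts (edgeR adjusted p = 9.94e-05). Within the same distance of Zfp961, 2 of 7 others were called (28.6%). Zfp617, a member of its cluster, fell and Tpm4 rose (287, 286, 430 and 415 CPM, 0.56 ± 0.04, edgeR adjusted p = 4.95e-08). Between Zfp868 and Zfp961, a span of 2.34 Mb, 82 other genes were tested, of which 19 rose and 13 fell (39.0%), beside 26.8% of all tested genes. Near Zfp160 the single other tested gene, Ppp2r1a, was not called, and near Zfp395 1 of 3 was (33.3%). No test of these shares was made.

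Some Zfp genes are so alike that reads cannot be given to one of them with confidence. In 18 members at least 20% of the 31-base words of their transcripts also occur in another listed gene. Words were counted on either strand over whole transcripts, so the partner need not be a close copy. That of Zfp593, at 71.46%, was E130218I03Rik, and Zfp944 shared 21.52% in all. Of the 18, 4 were called: Zfp97, Zfp960, Zfp944 and Zfp808. The extreme pair was Zfp97 and Zfp960, neighbours on chromosome 17 that share 85.78% and 87.28% of their words. Zfp97 had 7.77, 9.92, 4.87 and 6.69 CPM (log2 fold change -0.61 ± 0.16, edgeR adjusted p = 0.0108), and Zfp960 had 7.17, 4.2, 10.2 and 7.69 CPM (0.66 ± 0.20, adjusted p = 0.0219). They moved in opposite directions, and their sum was 14.9, 14.1, 15.1 and 14.4 CPM, a log2 ratio of 0.02. The sum overlapped between genotypes, while the share given to Zfp97 was 52% and 70.3% in wild type 1 and 2 and 32.3% and 46.5% in knockout 1 and 2. Both single calls are uncertain for this reason. Both were also lost when a library was left out: Zfp97 without wild type 2 (0.132) or knockout 1 (0.187), and Zfp960 without wild type 2 (0.24), knockout 1 (0.332) or knockout 2 (0.0882). Over 13 alternatives the adjusted p ranged from 0.000672 to 0.222 for Zfp97 and from 0.000464 to 0.361 for Zfp960.

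**Figure D4:**
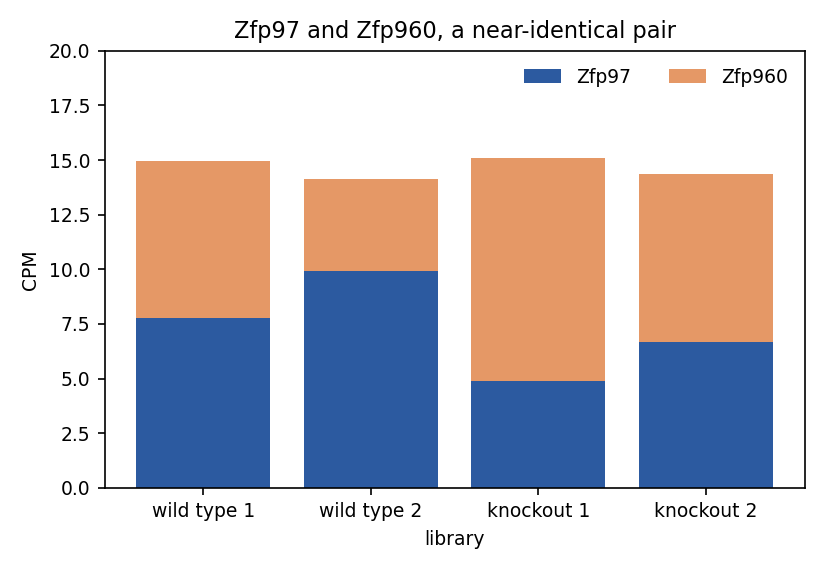
CPM of Zfp97 (blue) and Zfp960 (orange), stacked, in each library. The total stays between 14.1 and 15.1 CPM while the part given to Zfp97 is smaller in the knockout libraries.

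Features of the encoded proteins were counted by pattern in the translated coding sequences of GENCODE M21, which gave a protein for 227 members. A strict KRAB A box pattern was found in 63, of which 9 rose and 5 fell, against 25 and 13 of the other 164. A wider pattern, written after the data were seen because the strict one missed variants common in mouse, was found in 99, of which 18 rose and 7 fell (25.3% called), against 16 and 11 of the other 128 (21.1%). Both shares were below the 31.2% of genes that reached the count minimum. Genes with the wider pattern were scarcer, with a median FPKM of 3.75 against 8.94, and the part of their lower counts in these shares was not tested. By number of fingers, 21 of 119 members with 10 or more rose and 6 fell. With 4 to 9 fingers 7 of 76 rose and 7 fell, and with 0 to 3 fingers 6 of 32 rose and 5 fell. The shares called were 22.7%, 18.4% and 34.4%, beside the same 31.2%. Median mean counts of these groups were 283.5, 446.9 and 581.9, and the part of depth was not tested. The many-fingered group had 77 of 119 log2 fold changes above 0 (64.7%), and the groups with 4 to 9 and 0 to 3 fingers had 38 of 76 and 16 of 32. Of all tested genes with a mean count of 100 to 300, 54.1% lay above 0. These are counts without a test, and the medians of the finger groups, from most fingers to fewest, were 0.06, 0.00 and -0.00.

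The machinery that KRAB proteins recruit was lower in parts. Of 49 symbols listed for it, 46 were tested. Tasor and Lsh on that list are other names of the tested genes Fam208a and Hells, and Atf7ip2 was not tested. Of the 46, 16 fell and 2 rose, with a median log2 fold change of -0.08. Thus 34.8% of the list fell, beside 13.2% of all tested genes and 15.8% of those that reached the count minimum. In all, 39.1% of the list was called. The list is more deeply counted than most genes, with a median mean count of 1962. Of all genes with a mean count of 1000 or more 39.6% were called. The share called in either direction was thus near that of genes of this depth. Of those deeper genes 22.1% fell and 17.4% rose, beside 34.8% and 4.35% of the list. Trim28, the corepressor that KRAB domains bind, had 518 and 501 CPM in wild type 1 and 2 and 440 and 429 in knockout 1 and 2. Both knockout libraries were below both wild-type ones. The log2 fold change of Trim28 was -0.23 ± 0.04 (± SE; edgeR adjusted p = 0.000269; called in 12 of 13 alternatives). Setdb1, the methyltransferase that TRIM28 brings, had 115, 110, 123 and 121 CPM (0.11 ± 0.04, adjusted p = 0.0603). It did not pass the test, and its values leaned the other way. Sumo3, which encodes a SUMO modifier, fell by 0.36 ± 0.05 (adjusted p = 0.000108), and the NuRD deacetylase subunits Rbbp4, Hdac1 and Mbd3 fell by 0.22 ± 0.04 (adjusted p = 0.000438), 0.20 ± 0.04 (0.00106) and 0.24 ± 0.04 (0.00108). Sumo3, Rbbp4 and Hdac1 were called in 12 of 13 alternatives, and Mbd3 in 11, being lost without knockout 2 (0.0536; range 6.96e-05 to 0.0806). The 2 that rose were Gatad2a, another NuRD subunit (0.14 ± 0.04, adjusted p = 0.0168), and Fam208a, the HUSH subunit TASOR (0.15 ± 0.05, adjusted p = 0.0408). Each was lost without any 1 of the libraries (0.0546 to 0.14 and 0.0927 to 0.228). The count for the list was 9 in DESeq2 and between 6 and 11 with 1 library left out, the lowest without knockout 2; with unfiltered FPKM and against a fold of 1.2 it was 0, with 23 and 1 at an unadjusted p under 0.05 in limma and edgeR.

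Other zinc finger families, chosen by the same count minimum, were counted for comparison. Of 30 Zbtb genes, whose proteins pair fingers with a BTB domain, 4 rose and 2 fell. Of 15 Zkscan and Zscan genes 1 rose, namely Zkscan5, and of 10 Klf genes, which carry 3 fingers at the C-terminus, 2 rose and 1 fell. The shares called were 20%, 6.7% and 30.0%, beside 31.2% of tested genes that reached the same minimum, so that of Klf was near it. The median mean counts of the 3 families were 577, 350.2 and 531.9. Of all tested genes with a mean count of 300 to 1000, 26.8% were called. No test of these shares was made. Klf6 had 239, 243, 305 and 312 CPM (log2 fold change 0.36 ± 0.04, edgeR adjusted p = 6.24e-06) and Klf13 had 282, 283, 349 and 354 (0.32 ± 0.04, adjusted p = 1.53e-05). Both were called in all 13 alternatives. Zbtb4, which binds methylated DNA, rose by 0.35 ± 0.05 (53.6, 50.2, 67.5 and 64.9 CPM; adjusted p = 0.000196; called in 12 of 13). Across these 3 families 10 genes were called, 4 in DESeq2, and as few as 3 without knockout 2.

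Promoter windows of RefSeq (250 bases before to 50 after a start) were found for 189 members, 232 windows in all. They were rich in CG, with a median of 17 CG dinucleotides against 7 in all 32851 windows. The windows of members that fell had a median of 21 and those of members that rose a median of 10. On either strand, CCGGAAG was present in 20.7% of the members' windows (8.86% of all), GGGCGG in 50.4% (35.7%), TGACG in 35.8% (20.8%), ACGTG in 24.6% (19.6%), GCATGCGC (NRF1) in 5.6% (2.71%), AAGATGG (YY1) in 9.05% (6.34%) and ACTACAA in 5.17% (3.24%). Each of these letters was thus more frequent in the members' windows than in all windows, beside their higher CG content. All windows were taken without the count minimum that the members had to reach. The part of CG content or of expression was not tested. In the 32 windows of members that rose and the 19 of members that fell, GGGCGG was present in 13 and 12, TGACG in 11 and 8, CCGGAAG in 7 and 5, ACGTG in 7 and 5, AAGATGG in 4 and 2, ACTACAA in 3 and 0, and GCATGCGC in none.

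The length the deposited tables give for a gene is an average over its transcripts weighted by their abundance, so a shift in it reflects a change in the mix of transcripts. Of 70 members with several transcripts, 21 had lengths that did not overlap between genotypes (30.0%), near the 33.2% of all such genes. In 3 of them the mean changed by at least 5%: Zfp606 was shorter in the knockout by 5.69% (3848.32, 3790.06, 3616.36 and 3587.77 bases), Zfp691 had 1811.91, 1878.52, 1745.43 and 1741.75 bases, and Zfp672 was longer by 5.5% (2272.55, 2197.45, 2338.56 and 2377.36 bases). None of these 3 genes was called in level. The length of Zfp207 rose by 2.6% (2390.98, 2401.11, 2454.99 and 2461.86 bases) while its counts fell, and that of Zfp868 changed by 0.08%.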

How the data were processed

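RNA was sequenced in 4 libraries of mouse CD4+ T cells, 2 wild type and 2 knockout, grouped by the genotype label. Bowtie and RSEM (no versions) and the build GRCm38 (mm10) are named in the submitters' processing notes. Per the file headers, the deposited tables hold, for each gene, an expected count (an estimated count, which divides reads that match several genes and need not be whole), an FPKM value and a length. Neither strand setting nor annotation release is given in the sources used here.

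The authors' expected counts were rounded and tested with edgeR 4.0.16 in R 4.3.3 (quasi-likelihood test, two-sided, TMM, filterByExpr with a minimum count of 10 and a minimum total of 15), with Benjamini-Hochberg adjustment over 12677 genes at 0.05. CPM uses TMM-scaled library sizes; TMM factors lay between 0.99704 and 1.0022, and the biological coefficient of variation was 2.89%. SE is the standard error of the log2 fold change, taken as its size over the square root of edgeR's F statistic. It thus rests on dispersion shared across genes and is not the spread of the libraries of a group. With 2 libraries per group, an exact permutation test of single values cannot go below p = 0.333. Replicates were no duplicates: chi-square per degree of freedom was 2.211 and 2.55 within genotypes and 14.23 to 17.6 across. On counts simulated with the fitted dispersion, the test recovered 75% of 1.5-fold and 94% of 2-fold changes and called 15 unchanged genes. Smaller changes, which most called members had, were not simulated. Alternatives used DESeq2 1.42.0, limma 3.58.1 (voom, and log2(FPKM + 0.1) or log2(FPKM + 1) on the deposited FPKM), other scalings, no filter, a fold of 1.2, 1 library left out, a replicate block, and other member and cluster settings.

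The members and lists were chosen with earlier results of these data known. Named genes were the 12 largest rises and falls among called members whose groups do not overlap, the 8 highest in FPKM, members of clusters with at least 2 called members, genes at the count minimum, and members with known roles; Zfp445, Zfp608, Zfp120, Zfp606, Zfp691, Zfp672, Zfp534, Rps19-ps3, Miip, Pbx4, Tpm4, Ppp2r1a and other called members outside this rule were named after their values were seen. Of the genes fixed for known roles, Zfp711 is no member. One marker gene of the fixed list is not reported here. Shared 31-base words were counted over GENCODE M21 transcripts of listed genes.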

Additional observations from a re-analysis of the deposited data

How the results depend on the processing

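Within each group the replicate number did not pair the libraries (the correlation of same-numbered deviations was 0.00673); with a replicate block, 39 members were called higher and 19 lower, all 52 called members kept their call, and 3952 genes were called in all. Members called higher numbered 34, and 10 in DESeq2, 16 without the filter for low counts, 16 from log2(FPKM + 0.1), 15 from log2(FPKM + 1), 4 from log2(FPKM + 0.1) without a filter, 5 against a fold of 1.2, and 12 to 20 with 1 library left out. Members called lower numbered 18, and 8, 7, 7, 7, 1, 2 and 7 to 10 in the same order. All genes called numbered 3398, and 1707 in DESeq2, 1928 with no filter, 259 with unfiltered FPKM, 564 against the fold of 1.2, and 1441 to 2355 with 1 library left out. In the same order, the corepressor list gave 18, and 9, 10, 0, 0 and 6 to 11; the other zinc finger families gave 10, and 4, 5, 2, 0 and 3 to 7. At an unadjusted p under 0.05, 23 corepressor genes passed with unfiltered FPKM in limma, and against edgeR's fold of 1.2 1 corepressor gene and 4 of the other families. Members with a strict KRAB match called numbered 14, and 4 in DESeq2, 6 without the filter, 5 from log2(FPKM + 0.1), 5 from log2(FPKM + 1), 3 from unfiltered FPKM, 3 against the fold of 1.2, 4 to 9 with 1 library left out, and 25 with the wider pattern, which was chosen after the data were seen, as was the comparison with genes of a mean count of at least 100. The members' median log2 fold change was 0.017, 0.029 with upper-quartile factors, 0.012 with log2(FPKM + 0.1) with or without the filter, 0.011 with log2(FPKM + 1), and 0.023 to 0.026 with 1 library left out. Leaving out a library means fewer samples by construction; for the other alternatives the cause was not tested. The counts kept within 1.5 times under limma-voom, RLE and upper-quartile factors, and with count minimums of 50 and 200. They also did so without the 18 members that share at least 20% of their words (32 higher, 16 lower). Clusters held 108 to 140 members with gaps of 250 and 1000 kb.

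Values that changed sign were all of uncalled genes near 0. With 1 library left out the log2 fold changes ran from -0.09 to 0.03 for Zfp599, from -0.17 to 0.15 for Zfp758, from -0.16 to 0.07 for Zfp943, from -0.01 to 0.31 for Zfp101, from -0.02 to 0.26 for Zfp952, from -0.11 to 0.05 for Zfp27, from -0.16 to 0.09 for Zfp568, from -0.13 to 0.15 for Zfp709, from -0.21 to 0.17 for Zfp882, from -0.17 to 0.01 for Zfp335, from -0.05 to 0.06 for Zfp148, from -0.04 to 0.08 for Zfp143, from -0.04 to 0.06 for Zfp217, from -0.04 to 0.07 for Zfp638, from -0.03 to 0.04 for Zfp740, from -0.10 to 0.12 for Zfp830 and from -0.02 to 0.16 for Zfp932. Zfp758 also had -0.01 in limma-voom and with log2(FPKM + 0.1), with or without the filter.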
